A study of Mus musculus with 4 samples.

Results

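The 42 genes described here encode proteins that copy DNA or prepare cells for S phase, and they were chosen as a list of symbols from 50600 rows of the count tables. Every symbol matched 1 row. RNA was read from Th2 cells (T helper 2), a CD4 lineage known for secreting interleukin-4 and interleukin-13. The donor strain of these primary cells was C57BL/6NJ, age was unknown and sex was not collected, and 4 biological replicates formed the single group. The file headers name a Th1 and Th2 differentiation series at 48 hours. The assay is labelled total RNA-seq, while the library protocol linked in the labels is one for polyA+ RNA. There was no second condition, so levels were compared between genes, between a gene and the row on its other strand, and between replicates. All 4 libraries carry the same donor identifier, so p-values measure the spread between these samples, which may be technical.

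DNA replication starts when the origin recognition complex, CDC6 and CDT1 load the ring-shaped MCM2-7 helicase onto DNA in G1. CDC45 and the GINS complex then turn the ring into an active helicase, and polymerases held by the PCNA clamp copy both strands. Cyclin E with its kinase and the E2F factors bring many of these genes on at the entry into S phase. Activated helper T cells pass through several such rounds as they differentiate.

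Totals were 1785970 to 2271993 counts per library. A library with 0 counts for a gene allows up to 3 counts, or 1.32 to 1.68 CPM (counts-per-million), and this limit covers counting error only. Of the listed T cell markers, 8 of 8 exceeded 3 counts in every library, as did 5 of 6 Th2 markers. Over all protein-coding rows the share was 26.5%. Il5 was at 0 in all 4 libraries. Cd247 held 972 to 1364 of the 1136 to 1610 T cell marker counts. Ptgdr2 held 147 to 263 of the 226 to 399 Th2 marker counts. Exons of both overlap a row on the other strand, as do those of Cd3e, Gata3 and Il5. The other T cell markers held 6 to 72 counts each, and the other Th2 markers 0 to 44. Of the B cell markers, Cd79a had 4 to 14 counts, and Cd79b, Ms4a1 and Pax5 were at 0. Macrophage and dendritic cell markers summed to 7 to 21 counts, of which Cd74 held 4 to 16, with Adgre1 and Itgax at 0. CD8 and NK cell markers summed to 2 to 4, with Ncr1 and Klrb1c at 0. Their part in the levels below was not tested. In bulk RNA, fewer cells in S phase and less RNA per cell cannot be told apart.

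Counts were made with strand setting 1, and they were spread unevenly between rows with and without exons that overlap a row on the other strand. The 4801 protein-coding rows with such an overlap held 45.6% ± 3.06 of counts, against 6.05% ± 0.824 for the 16963 without (SD, n = 4). For rows without an overlap the share was 6.91% in replicate 1, with a 95% Wilson interval of 6.87 to 6.94. It was 6.245% (interval 6.21 to 6.28) in replicate 2, 4.93% (interval 4.90 to 4.96) in replicate 3 and 6.13% (interval 6.09 to 6.16) in replicate 4, so replicate 3 stood lowest. How the strand setting relates to the orientation of the libraries was not tested. A level below is therefore the count assigned to the named row, and the tables cannot say how much of it came from that gene's own transcript.

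Of the 42 replication genes, 14 (33.3%) shared exon bases with a row on the other strand: Orc1, Orc6, Mcm7, Cdc45, Gins2, Rfc2, Rfc4, Rfc5, Pole, Lig1, Fen1, Tk1, Chaf1a and Ccne2. The share over all protein-coding rows was 22.1%. The other 28 had no such overlap. On the same strand, Mcm7 overlapped the microRNA rows Mir25 and Mir93 and Rpa1 overlapped Gm47300, all with 0 counts in every library. Levels were computed as TPM (transcripts-per-million), the count per kb of exon scaled to the same sum in each library. The 14 genes with an overlap had a median of 10.3 TPM and ranged between 0.741 and 242 TPM. The 28 without had a median of 3.18 TPM, between 0.690 and 19.8 TPM.

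Counts were assigned to most replication gene rows, and which transcripts gave them was not tested. At least 1 TPM in all 4 libraries was reached by 13 of the 14 genes with an overlap, where 46.8% of such protein-coding rows did so, and by 20 of the 28 without, where 14.7% did. More than 3 counts in every library were held by 14 of 14 genes with an overlap, beside 53.4% of such protein-coding rows, and by 21 of 28 without, beside 19.0%. The 7 that fell short were Cdc6, Gins1, Gins3, Gins4, Rfc3, Rpa3 and E2f1. Gins1 was the only member with a library at 0.

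The choice of genes by symbol did not read the promoter sequences shown here. S phase genes are known as E2F targets, however, so the choice was not independent of E2F elements. E2F factors bind short GC-rich elements, here searched on both strands as TTTGGCGC, TTTCCCGC, TTTCGCGC and TTTGCCGC. RefSeq promoter windows of GRCm38.p6 (250 bases before to 50 after a start site) were found for 35 of the 42 genes. At least 1 E2F form lay in the windows of 15 of the 35 (42.9%), while 2.60% of all 27025 genes had one. Counted per window, it was 15 of 42 (35.7%) against 2.26% of 32851. The CCAAT box, the NF-Y element, was in 23 of 35 (65.7%) against 41.1% of all genes, and the CHR element TTTGAA, a feature of genes expressed in G2 and M, in 5 of 35 (14.3%) against 20.2%. No test was made, the set of all genes was not matched to the members in base composition, and a match is not evidence of binding.

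The 15 genes with an E2F form were Cdc6, Cdt1, Orc1, Mcm3, Mcm5, Mcm6, Mcm7, Gins3, Rfc3, Pola1, Pold1, Lig1, Dnmt1, Hells and Uhrf1. They held 22 matches, 14 wholly before the start site and 8 after it. TTTCGCGC occurred 8 times, TTTGGCGC and TTTCCCGC 7 times each, and TTTGCCGC not at all. In Mcm5 and Mcm6 a pair of matches on opposite strands overlapped each other, and in Mcm7 1 match overlapped a CCAAT box. The 12 genes without an exon overlap made up 48.0% of the 25 such genes with a window, and the 3 with one made up 30.0% of 10.

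Windows are printed for the MCM genes with several matches, for Rfc3, which has a pair around its start site, and for Hells, whose counts were lowest in replicate 3. Each runs 5′ to 3′ on the gene's own strand, and capitals mark the E2F matches. They are chr1:20820263-20820562 (minus strand) for Mcm3, chr8:75109259-75109558 (plus) for Mcm5 and chr1:128359656-128359955 (minus) for Mcm6. Mcm7 is at chr5:138171834-138172133 (minus), Rfc3 at chr5:151651159-151651458 (minus) and Hells at chr19:38930740-38931039 (plus).
Mcm3: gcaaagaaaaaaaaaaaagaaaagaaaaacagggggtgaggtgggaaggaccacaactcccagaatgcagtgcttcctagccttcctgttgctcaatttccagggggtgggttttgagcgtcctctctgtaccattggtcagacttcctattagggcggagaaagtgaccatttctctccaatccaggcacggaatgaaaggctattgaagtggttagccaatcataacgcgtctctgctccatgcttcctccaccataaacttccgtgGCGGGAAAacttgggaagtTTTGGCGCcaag
Mcm5: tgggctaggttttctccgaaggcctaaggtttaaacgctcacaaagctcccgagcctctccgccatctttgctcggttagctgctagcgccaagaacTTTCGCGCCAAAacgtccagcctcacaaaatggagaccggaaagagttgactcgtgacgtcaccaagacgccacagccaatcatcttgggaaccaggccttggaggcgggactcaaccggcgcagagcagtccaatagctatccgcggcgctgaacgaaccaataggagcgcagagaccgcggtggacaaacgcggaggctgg
Mcm6: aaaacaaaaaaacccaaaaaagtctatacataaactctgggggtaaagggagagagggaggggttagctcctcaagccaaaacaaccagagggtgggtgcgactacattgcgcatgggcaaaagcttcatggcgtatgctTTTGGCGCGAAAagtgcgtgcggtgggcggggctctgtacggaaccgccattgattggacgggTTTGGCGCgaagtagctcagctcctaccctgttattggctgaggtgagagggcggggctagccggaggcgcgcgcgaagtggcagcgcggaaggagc
Mcm7: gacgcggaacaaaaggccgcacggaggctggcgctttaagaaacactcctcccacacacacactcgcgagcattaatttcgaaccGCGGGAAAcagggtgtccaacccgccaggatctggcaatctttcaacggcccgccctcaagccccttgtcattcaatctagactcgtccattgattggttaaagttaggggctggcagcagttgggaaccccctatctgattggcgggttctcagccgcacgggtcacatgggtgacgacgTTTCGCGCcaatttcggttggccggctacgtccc
Rfc3: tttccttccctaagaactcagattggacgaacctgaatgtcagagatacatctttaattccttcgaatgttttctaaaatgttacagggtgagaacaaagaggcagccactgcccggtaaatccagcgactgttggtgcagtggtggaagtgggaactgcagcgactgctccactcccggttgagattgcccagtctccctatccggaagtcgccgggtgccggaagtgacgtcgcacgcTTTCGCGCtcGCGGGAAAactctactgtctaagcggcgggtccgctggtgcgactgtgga
Hells: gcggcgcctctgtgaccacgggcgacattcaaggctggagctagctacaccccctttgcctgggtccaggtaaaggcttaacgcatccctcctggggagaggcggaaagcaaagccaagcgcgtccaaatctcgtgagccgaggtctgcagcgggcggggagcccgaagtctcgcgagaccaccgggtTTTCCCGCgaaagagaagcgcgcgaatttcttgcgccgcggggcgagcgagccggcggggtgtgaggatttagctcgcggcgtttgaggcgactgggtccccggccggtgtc

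**Figure D1:**
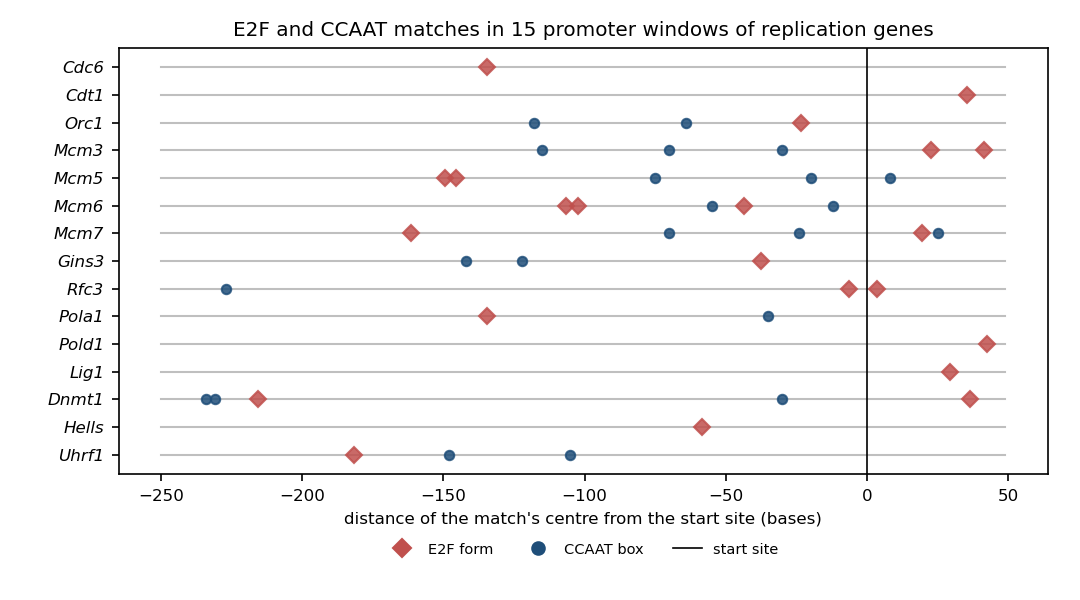
Positions of E2F forms (red diamonds) and CCAAT boxes (blue circles) in the 15 promoter windows that hold an E2F form, as the distance of the match's centre from the start site in bases. The first bases of the E2F matches lie between -219 and 39 from the start site, with 14 before it and 8 after it.

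Of the loading factors, Cdt1, which brings the MCM ring to origins, had 15, 17, 13 and 9 counts in replicates 1 to 4 and averaged 3.08 TPM ± 0.548 (SD, n = 4, as for every mean below). Cdc6, its partner ATPase, had 10, 9, 3 and 8 counts and averaged 1.06 TPM ± 0.448. The lowest library of Cdc6 was replicate 3. Orc1, the ATPase subunit of the origin recognition complex, had 19, 16, 11 and 7 counts (2.70 TPM ± 0.867). Orc6, its smallest subunit, had 35, 31, 5 and 14 counts (6.15 TPM ± 3.725). Its highest library was 6.81 times its lowest, the widest ratio of the 41 genes counted in every library.

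The rows of the MCM2-7 subunits were all at 1 TPM or more in every library, at unequal levels. The proteins assemble in equal numbers, which row counts do not measure. Mcm3 (chromosome 1, 20802968 to 20820312, mm10) had 80, 62, 66 and 75 counts, or 13.9 TPM ± 2.81. Mcm5 (chromosome 8) had 50, 55, 27 and 60 counts, or 8.98 TPM ± 3.62, and Mcm4 (chromosome 16) had 47, 49, 28 and 40, or 8.37 TPM ± 2.11. Mcm6 (chromosome 1) had 55, 47, 27 and 41 counts, or 6.65 TPM ± 1.84, and Mcm2 (chromosome 6) had 34, 36, 30 and 26, or 3.28 TPM ± 0.293. These 5 genes had no overlap. Mcm3 was 4.22 times Mcm2 by their means, and 4.36, 3.19, 4.08 and 5.35 times in replicates 1 to 4, so their libraries did not overlap. Mcm5, Mcm4 and Mcm6 lay between them with overlapping ranges.

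Mcm7 (chromosome 5, 138164583 to 138172422) stood highest of the 6 at 20.4 TPM ± 2.57, with 116, 147, 139 and 98 counts. Its lowest library, at 17.3 TPM, was just under the highest of Mcm3, at 17.7 TPM. It is also the only 1 of the 6 with a neighbour on the other strand at each end. Ap4m1, an adaptor complex subunit gene, shares 321 bp at the 5′ end, and Cops6, a COP9 signalosome subunit gene, shares 64 bp at the 3′ end. Ap4m1 exons cover 132 bases of the printed promoter window. Ap4m1 had 1572, 1472, 1596 and 1279 counts and Cops6 474, 404, 394 and 365, both above Mcm7 in every library.

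Among the helicase activation genes 1 row dwarfed its partners. Gins2, a subunit of the 4-part GINS complex (chromosome 8, 120578633 to 120589304), had 1517, 1423, 1431 and 1117 counts and 242 TPM ± 3.41, the highest of all 42 genes. Its libraries ranged from 237.4 to 244.7 TPM, a coefficient of variation (SD over mean) of 1.41%, and from 625.4 to 673.7 CPM. The other subunits were near the floor: Gins1 had 1, 3, 0 and 3 counts, Gins3 had 2, 4, 1 and 3, and Gins4 had 3, 4, 6 and 7. Gins2 was 351 times Gins3 by mean TPM, while Gins4 was 4.05 times Gins3. Of the exon length of Gins2, 67.3% (2758 bp) is shared tail to tail with Gse1, a gene of a chromatin corepressor complex. Cdc45, which joins GINS on the helicase, had 16, 19, 10 and 11 counts (4.497 TPM ± 1.20), and Mcm10, which helps to activate it, had 17, 18, 15 and 18 (1.63 TPM ± 0.328).

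Pcna, the sliding clamp (chromosome 2, 132249162 to 132253314), was the highest of the 28 genes without an overlap. It had 87, 81, 44 and 51 counts and 19.8 TPM ± 5.41. Of the RFC subunits that load the clamp, Rfc5 stood apart. Rfc5 (chromosome 5) had 755, 773, 720 and 535 counts and 107.5 TPM ± 6.42, and it shares 499 bp with Wsb2, a ubiquitin ligase adaptor gene. Rfc2 (4.32 TPM ± 1.28) and Rfc4 (4.88 TPM ± 0.746) also have an overlap but stood near Rfc1, the large subunit without one, at 5.15 TPM ± 1.28. Rfc3, whose promoter window is printed above, had 3, 8, 2 and 3 counts (0.806 TPM ± 0.524). The highest RFC subunit was 133 times the lowest with all 5 and 6.40 times with Rfc1 and Rfc3 alone.

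The catalytic polymerase genes were among the lowest members. Prim1, the primase subunit that lays the RNA primer, had 21, 12, 8 and 13 counts (2.54 TPM ± 0.9498). Pola1, which extends that primer, had 21, 20, 4 and 16 (1.27 TPM ± 0.643), with replicate 3 below the others. Pold1, of the lagging strand polymerase, averaged 1.25 TPM ± 0.278, and Pole, of the leading strand polymerase, 0.741 TPM ± 0.264. None of these 4 had enough counts in every library to enter the test of replicate variation below. Pola1 and Prim1 averaged no fewer counts than Cdt1, which entered.

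The single-strand binding subunits, which form a trimer, were found at these levels: Rpa1 at 3.70 TPM ± 0.814, Rpa3 at 1.89 TPM ± 0.613 and Rpa2 at 1.89 TPM ± 0.497. None of the 3 has an overlap. Rpa1 was 1.96 times Rpa2 by their means, and 1.66, 1.88, 2.34 and 4.02 times in replicates 1 to 4. On the lagging strand, Lig1, the ligase that seals Okazaki fragments, had 100, 69, 69 and 97 counts (14.5 TPM ± 4.29). Fen1, the flap nuclease that acts just before it, had 10, 16, 7 and 10 counts (3.25 TPM ± 1.16). Of Fen1 exons, 78.8% (1909 bp) are shared with Gm10143, annotated as antisense, which held 8340, 8332, 8353 and 5855 counts. That was the densest row opposite any of the 14.

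In nucleotide supply, Rrm2, the cell cycle regulated subunit of ribonucleotide reductase, had 61, 46, 29 and 54 counts (12.7 TPM ± 4.35). Rrm1, the large subunit, had 66, 53, 38 and 66 (3.75 TPM ± 1.24). Rrm2 was 3.67, 3.45, 3.03 and 3.25 times Rrm1 in replicates 1 to 4, so the ratio moved little while both levels were lowest in replicate 3. Tk1, which salvages thymidine, had 148, 165, 137 and 109 counts (19.4 TPM ± 1.99) and shares 83 bp with Afmid. Tyms, which makes dTMP, had 21, 9, 4 and 10 (1.31 TPM ± 0.770).

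The chromatin genes had the highest median of the 9 roles, 11.3 TPM over 4 genes. Chaf1a, a histone chaperone subunit that assembles nucleosomes behind the fork, had 139, 108, 131 and 72 counts (24.25 TPM ± 3.89) and shares 620 bp with Ubxn6. Dnmt1, the maintenance DNA methyltransferase, has no overlap and had 182, 165, 152 and 158 counts (16.3 TPM ± 2.08), the most counts of the 28. Uhrf1, which brings DNMT1 to hemimethylated DNA, had 61, 24, 28 and 37 (6.40 TPM ± 2.63), and Hells, a chromatin remodeller needed for DNA methylation, had 77, 70, 19 and 49 (5.43 TPM ± 2.47).

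The cyclin E genes differed. Ccne2 (chromosome 4, 11191351 to 11204779) had 465, 488, 464 and 288 counts (87.4 TPM ± 10.5), and shares 609 bp with Ints8, an Integrator complex subunit gene. Ccne1, without an overlap, had 12, 21, 10 and 14 counts (3.94 TPM ± 1.41). E2f1, the transcription factor gene, had 3, 5, 2 and 5 counts (0.896 TPM ± 0.446), at or under the floor of 3 counts in replicates 1 and 3.

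In order of level, none of the 27 neighbouring pairs among the genes without an overlap were separated in their libraries, so their order is loose step by step. Among the 14 with one, 5 of 13 neighbouring pairs were: Gins2 over Rfc5, Rfc5 over Ccne2, Ccne2 over Chaf1a, Lig1 over Orc6 and Orc1 over Pole.

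Genes with an overlap held more counts per kb than genes without. Density here is the summed counts of a class over its summed exon length. Its log2 ratio was 2.85, 2.98, 3.45 and 2.61 in replicates 1 to 4, with a mean of 2.97 ± 0.35 (SD, n = 4). Over all protein-coding rows it was 4.30 ± 0.24. Gins2, Rfc5 and Ccne2 made up 59.7% to 68.6% of the counts of all 42 genes. Without these 3, chosen after their values were seen, the log2 ratio was 0.90 ± 0.30. The remaining 11 were thus 1.87 times as dense as the 28.

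For each of the 14 genes the densest row on the other strand was compared with it, as the log2 ratio of counts per kb of exon, gene over opposite row. The opposite row was denser in all 4 libraries for 8 genes (57.1%), and the replication gene for 5 (35.7%). Over all 4801 protein-coding rows with an overlap these shares were 51.2% and 22.6%. Over the 3060 with at least 20 counts in the pair in every library, which all 14 pairs had, they were 67.4% and 28.7%. The first share of the 14 lay between these backgrounds, below that at like depth. The second lay above both, on 14 pairs only. The exact two-sided sign-flip test gave p = 0.13 for each of the 13 pairs with 1 sign in all 4 libraries, the smallest p that 4 libraries allow.

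The widest gap was Fen1 against Gm10143, at -9.08 ± 0.54. Pole followed with -8.74 ± 0.69 against Gm15792, an antisense row inside it, which had 342, 343, 350 and 238 counts. That pair shares only 78 bp, or 0.699% of Pole exons. Orc1 stood at -6.72 ± 0.48 against Gm12743, which had 1439, 1539, 1530 and 1081 counts. These 3 opposite rows are not protein-coding. Rfc4 (-3.67 ± 0.32 against the translation factor gene Eif4a2), Chaf1a (-3.65 ± 0.20 against Ubxn6) and Mcm7 (-3.30 ± 0.20 against Ap4m1) formed a second tier. Rfc2 (-1.40 ± 0.35 against Lat2) and Tk1 (-0.36 ± 0.06 against Afmid) were closest to even among the 8.

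The replication gene was the denser for Rfc5 (3.55 ± 0.28 over Wsb2), Gins2 (2.96 ± 0.13 over Gse1) and Lig1 (2.93 ± 0.19 over Zswim9). The same held for Cdc45 (1.39 ± 0.37 over Ufd1) and Ccne2 (0.52 ± 0.05 over Ints8). Wsb2 had 89, 87, 58 and 65 counts, Gse1 519, 494, 474 and 317, and Ints8 721, 700, 685 and 429. Orc6 changed sides: its log2 ratio to Vps35, a retromer subunit gene, was 0.81, 1.19, -1.56 and -0.04 in replicates 1 to 4 (exact sign-flip p = 1). Vps35 itself had 72, 49, 53 and 52 counts. By arrangement, 8 of the 14 pairs met tail to tail and 5 head to head, and Gm15792 lies inside Pole. Which transcripts gave the counts of a pair was not tested.

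**Figure D2:**
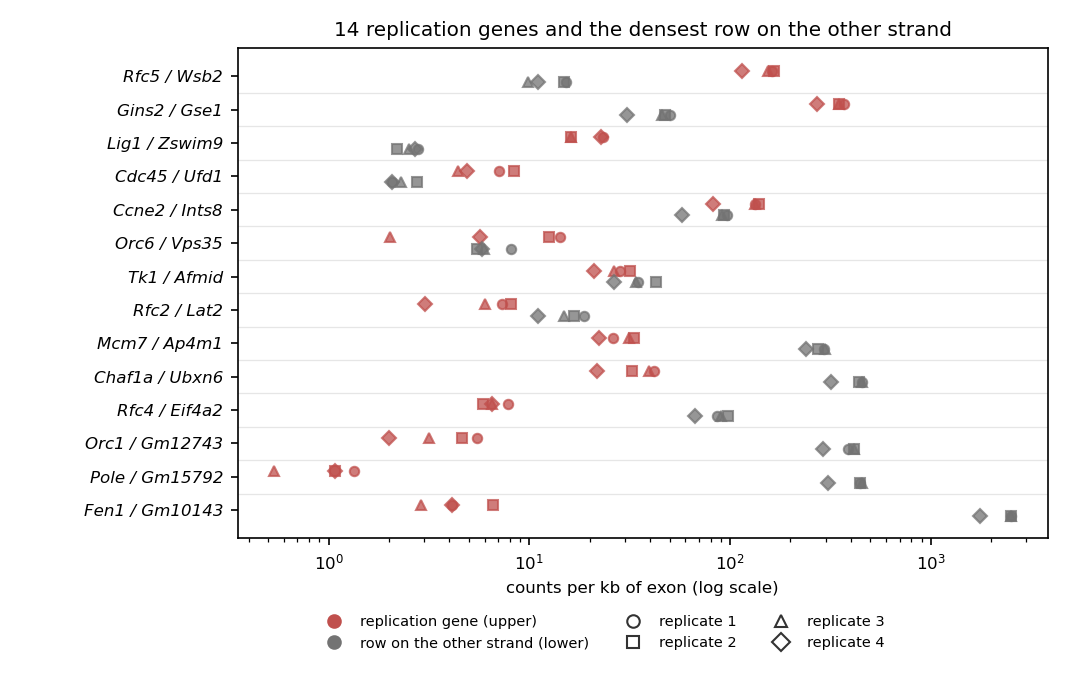
Counts per kb of exon (log scale) of the 14 replication genes with an overlap (red, upper in each pair) and of the densest row on the other strand (grey, lower), with 1 symbol per replicate. Red lies right of grey in all 4 libraries for the top 5 pairs, left of it for the bottom 8, and on both sides for Orc6.

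Summed over all 42 genes, replication genes held 0.188% ± 0.0125 of counts (SD, n = 4). By replicate this was 0.194% in replicate 1 (95% Wilson interval from 0.189 to 0.2) and 0.201% in replicate 2 (interval 0.195 to 0.207). It was 0.173% in replicate 3 (interval 0.168 to 0.178) and 0.182% in replicate 4 (interval 0.176 to 0.188). The classes moved differently. The 14 genes with an overlap summed to 1493, 1575, 1442 and 1343 CPM, a coefficient of variation of 6.64%, with replicate 4 lowest. Protein-coding rows with an overlap were also lowest there, at 41.1% of counts, with 46.9% to 47.55% in the other libraries. The 28 without summed to 451, 434, 288 and 478 CPM, a coefficient of 20.6%, with replicate 3 below the others. Of these 28 genes, 22 had their lowest CPM in replicate 3. With at least 20 counts on average it was 11 of 13 (84.6%), and 62.1% of the 1272 protein-coding rows of that class and depth did the same, so the low point was shared by most such rows.

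Set against their own class, the 28 genes held 0.653% of the counts of protein-coding rows without an overlap in replicate 1 (95% Wilson interval 0.614 to 0.694) and 0.6945% in replicate 2 (interval 0.651 to 0.741). They held 0.584% in replicate 3 (interval 0.54 to 0.631) and 0.779% in replicate 4 (interval 0.729 to 0.833). The mean was 0.6775% ± 0.0817 (SD, n = 4). This denominator was chosen after the values were seen. Replicate 3 was still lowest, and replicate 4 was highest. Whether the libraries differed in the share of cells in S phase was not tested.

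**Figure D3:**
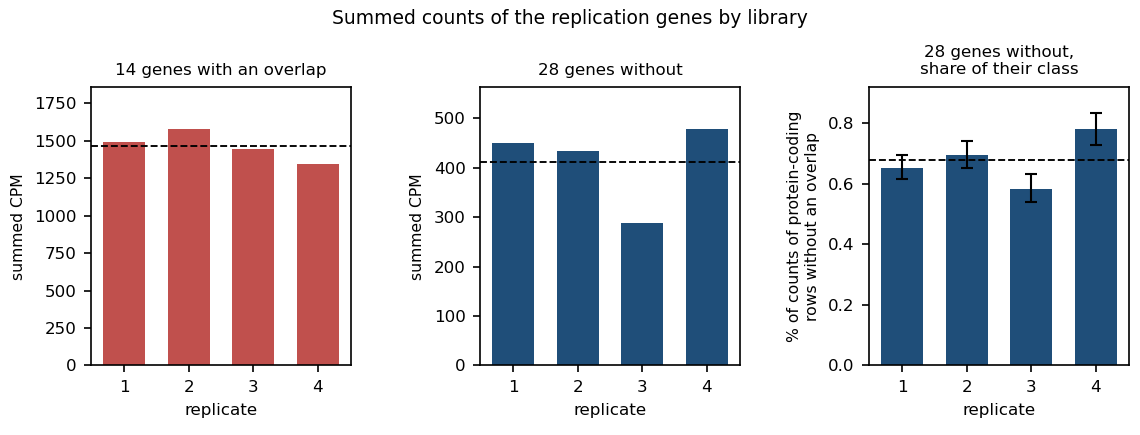
Summed CPM of the 14 genes with an overlap (left) and of the 28 without (middle), and the share of the 28 in the counts of protein-coding rows without an overlap (right, with 95% Wilson intervals), by replicate. Dashed lines are means. Replicate 3 is lowest in the middle and right panels, at 288 CPM and 0.584%, and replicate 4 is lowest on the left, at 1343 CPM.

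Variation between replicates was tested with edgeR by goodness of fit of a negative binomial model with 1 mean per gene. The dispersion was a trend fitted on the same libraries. A gene that passes therefore varied by more than genes of like abundance, and one that does not may still vary. The filter needed enough counts in every library, so a gene with a single low library could be left out for the variation under test. Of the 42 genes 23 entered (8 with and 15 without an overlap), and 19 did not. Of the 23, Hells passed (edgeR adjusted p = 0.0371), where 0.454% of all 5064 genes tested did. Its TPM was 7.06, 6.84, 1.79 and 6.04 in replicates 1 to 4, so replicate 3 stood apart. Without replicate 3 its edgeR adjusted p was 1, and without replicate 1, 2 or 4 it was 0.0791, 0.142 and 0.0503. Across all alternatives it ranged between 0.00239 with a common dispersion and 1, so the call rests on replicate 3 and on the settings.

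A filter on a mean of at least 10 counts, chosen after the values were seen, let 33 of the 42 genes enter. None passed by the edgeR adjusted p, beside 0.29% of the 6217 genes tested, and 9 did at an unadjusted p under 0.05, beside 5.42%. Hells then had an edgeR adjusted p of 0.0614. Orc6, left out before with counts of 35, 31, 5 and 14, came next with an unadjusted edgeR p of 0.00127 and an adjusted p of 0.214. Pola1, with 4 counts in replicate 3, had an unadjusted edgeR p of 0.0167 and an adjusted p of 0.705.

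In the test of 23 genes, 6 passed at an unadjusted p under 0.05, beside 5.13% of all genes tested: Hells, Mcm5, Uhrf1, Rrm2, Lig1 and Rrm1. Lig1 was 1 of the 8 genes with an overlap, beside 60 of 1997 protein-coding rows of that class (3.0%), and the others were 5 of the 15 without, beside 166 of 1658 (10%). Without replicate 3 the count was 2 of 29, beside 227 of all 5586 genes tested. Without replicate 4 it was 2 of 26 (all genes 259 of 5359). Without replicate 1 it was 5 of 23 (250 of 5134), and without replicate 2 it was 4 of 26 (250 of 5231). With library totals only it was 3 of 23 (250 of 5064). With DESeq2 size factors it was 6 of 23 (253 of 5064), and with a common dispersion 7 of 23 (459 of 5064). With no filter on low counts it was 5 of 42 (748 of 17327). Mcm5 was 4.596 TPM in replicate 3 and 13.3 TPM in replicate 4, with an edgeR adjusted p of 0.455. Uhrf1 was highest in replicate 1 at 9.46 TPM and lowest in replicate 2 at 3.97 TPM (edgeR adjusted p = 0.821), so it did not follow the same order. At the other end Gins2, Mcm2, Cdt1 and Rfc5 had unadjusted edgeR p-values of 0.956, 0.956, 0.863 and 0.861.

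A wider list of 74 further replication and S phase genes was read the same way. Of them 28 (37.8%) had an overlap, beside 22.1% of protein-coding rows. In all libraries 49 (66.2%) reached 1 TPM, beside 21.8%, and 60 (81.1%) held more than 3 counts, beside 26.5%. Their medians were 6.10 TPM with an overlap and 2.12 TPM without, below those of the 42 genes in both classes. None of the 42 further genes that entered the test passed by the edgeR adjusted p, beside 0.454% of all genes tested. At an unadjusted p under 0.05 it was 2 of 42, near the 5.13% of all genes tested. The highest with an overlap were Cdk4, the G1 kinase (619 TPM ± 16.5, opposite Tspan31), and Rnaseh2a, which removes RNA from DNA (488 TPM ± 40.3, opposite Prdx2). Next came Donson (235 TPM ± 19.5, opposite Son) and Ccna2, cyclin A2 (197 TPM ± 10.8, opposite Exosc9). Mcm9, an MCM relative, followed (136 TPM ± 8.71, opposite Asf1a, which is also on the wider list). On the same strand, Donson shares 287 bp with Atp5o and Rnaseh2a 339 bp with Gm49661.

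The highest of the 46 without an overlap were Pole3, a polymerase epsilon subunit (24.5 TPM ± 1.12), and Top1, a topoisomerase (13.96 TPM ± 1.63). Gmnn, the inhibitor of CDT1 (12.7 TPM ± 0.843), Tipin, a fork protection factor (11.03 TPM ± 3.17), and Top2a (10.7 TPM ± 1.88) followed. Top2a shares 122 bp with Gm23451 on the same strand. Pole3 had 79, 73, 73 and 53 counts and Pole itself 15, 12, 6 and 12. In 20 of the 28 genes with an overlap (71.4%) the opposite row was denser in all 4 libraries. With at least 20 counts in the pair it was 20 of 27 (74.1%), near the 67.4% of protein-coding rows at that depth. E2F forms lay in the windows of 20 of the 58 further genes with one (34.5%).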

How the data were processed

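RNA of 4 mouse Th2 libraries (1 group) was analysed. Raw counts of fragments per gene were deposited. Per the file headers they came from featureCounts 1.4.6-p4 in paired mode, requiring both mates, with strand setting 1, exon features, gene-level sums and GENCODE vM13. The build is mm10 per the labels. Alignment was by STAR, going by the input name (version not given in the sources). The authors' tables also give exon coordinates and exon length (bp). GENCODE vM21 gave names and types, with 224 of 50600 rows unmatched.

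Any exon base shared with a row on the other strand counted as an overlap. TPM came from count and length. Replicate variation was fitted on all rows in edgeR 4.0.16 (limma 3.58.1, R 4.3.3) with an intercept, trended dispersion, TMM factors, filterByExpr and Benjamini-Hochberg adjustment at 0.05. DESeq2 1.42.0 gave alternative size factors. With CT010467.1 and Gm42418 set aside, chi-square over its degrees of freedom was 1.91 to 3.71 for each library pair, above sampling noise. Wilson intervals (95%) leave out all but counting error, as fragments carry no molecular identifiers and may be PCR copies.

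All 42 genes, the densest opposite row of each and the 5 highest further genes per class were named. The members, lists, motifs and tests were chosen with earlier results of these data known. Alternatives were other scalings, filters and dispersions, other overlap minimums, medians, and leaving out each replicate. SciPy 1.17.1 gave the intervals and Matplotlib 3.10.9 the plots, under Python 3.11.15.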

Additional observations from a re-analysis of the deposited data

Results flagged for a closer look

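In 5 of 67 values 1 library lay far from the other 3, measured as its gap to the nearest library over the whole range (above Dixon's 95% critical value for 4 samples). Chance flags about 1 in 20 groups. Replicate 3 was low for Cdc6 (0.849) and Pola1 (0.972). For Wsb2, the row opposite Rfc5, replicate 3 was low (0.837), and for Afmid, opposite Tk1, replicate 2 was high (0.914). For the share of counts in protein-coding rows with an overlap, replicate 4 was low (0.906). Cdc6 had 3 counts and Pola1 4 counts in replicate 3, so both rest on few read pairs.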

How the results depend on the processing

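No paired analysis was possible because there was 1 group. The number of genes called for varying between replicates beyond the fitted dispersion was 23 of 5064. It was 15 with no filter on low counts and 18 of 6217 with a filter on the mean count. Under the other settings it was 16 to 32, and without each replicate 7 to 20 (12 without replicate 3 and 7 without replicate 4). The number of members called, 1 in the reported setting, was 0 with library totals only, with no filter, with a filter on the mean count, and without each of the 4 replicates. The share of counts of the 42 genes, 0.188%, was 0.2025% without CT010467.1 and Gm42418, 0.0682% as a share of TPM, and 0.1831% to 0.1925% without each replicate. The log2 density ratio of genes with an overlap over those without, 2.97, was 1.44 as a ratio of medians with a pseudocount of 1 TPM, 1.67 with 0.1 TPM, 0.90 without Gins2, Rfc5 and Ccne2, and 2.81 to 3.09 without each replicate. The count of 8 denser opposite rows was 8 under each alternative run, but not always for the same genes. With counts in place of counts per kb, Ccne2 and Orc6 entered the 8, and Rfc2 and Tk1 left it. The median level of the 42 genes, taken per library and averaged over libraries, was 4.05 TPM, and 3.83 to 4.45 TPM without each replicate. As TMM-normalized CPM, a unit not scaled by exon length, it was 11.1. The causes of these differences were not tested. Of the members, 19 did not enter the test, for low counts throughout or in some libraries, and 7 were not above 3 counts in all libraries.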
